A study of Arabidopsis thaliana with 141 samples.

Results

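Transcript counts were examined in Arabidopsis thaliana seedlings of the line impk4 that were given methyl jasmonate (MeJA), the volatile ester of the wound hormone jasmonic acid, and in impk4 seedlings that were not. The members are the 6 B1 libraries that the labels give as impk4 with 3MBiP, 3 with MeJA and 3 without, of 141 libraries in the series and 39 in set B1. Both groups were whole seedlings 7 days old, grown in liquid medium, with 8 seedlings pooled for each RNA. Both were pretreated for 15 min with 10 uM 3MBiP, which the series' design text calls an inhibitor. The MeJA group then received 50 uM MeJA for 1 h, and the control group has no stimulus and no incubation time in its labels. Whether controls were held for that 1 h is not stated, so elapsed time cannot be told apart from MeJA. No solvent control for MeJA is named, and no B1 group holds impk4 without 3MBiP, so effects of 3MBiP in this line are part of both groups and cannot be told apart from the line. The labels name impk4 and a second line, impk36, without describing how either was made. Wild type (WT) and impk36 seedlings of the same set, pretreated and stimulated in the same way with 3 libraries per group, serve as comparisons. For single genes, values of further B1 groups of the same age are given. They are WT pretreated with 0.1% DMSO, and WT, impk4 and impk36 pretreated with 3MBiP and then given ABA (abscisic acid) or PEP3 for 1 h. Whether the libraries of a group came from separate cultures is not stated, so p-values measure the spread between these libraries.

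Jasmonates are perceived by COI1, the F-box subunit of a ubiquitin ligase, which captures JAZ repressors and marks them for breakdown. Loss of JAZ proteins, which recruit the TOPLESS corepressor through NINJA, frees the bHLH factor MYC2 and its relatives to act on their target genes. Among the known targets are the JAZ genes themselves and the enzymes that make and break down the hormone, so the pathway feeds back on itself, and in seedlings it is known for defence metabolism and slowed growth.

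MYC factors are known to bind the hexamer CACGTG, the G-box, which reads the same on both strands. Shown here are the 300 bases upstream of the annotated gene start for 4 JAZ genes and for AOS, a gene of jasmonate synthesis, since these genes carried large responses and hold the hexamer. The sequences were read from the RefSeq copy of TAIR10.1 and run 5′ to 3′ along the gene's strand, with CACGTG in capitals. The windows lie at chr1:28150447-28150746 (minus strand) for JAZ2, chr3:6119407-6119706 (plus strand) for JAZ3, chr1:10596052-10596351 (plus strand) for JAZ8, chr3:7879811-7880110 (minus strand) for JAZ13 and chr5:17099596-17099895 (minus strand) for AOS, and no exon of another gene falls in them.
JAZ2 promoter: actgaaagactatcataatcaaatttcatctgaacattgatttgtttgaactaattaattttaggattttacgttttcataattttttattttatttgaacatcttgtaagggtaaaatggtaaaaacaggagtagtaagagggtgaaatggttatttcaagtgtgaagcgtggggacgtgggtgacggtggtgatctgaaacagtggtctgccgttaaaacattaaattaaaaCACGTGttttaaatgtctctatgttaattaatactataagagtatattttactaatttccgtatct
JAZ3 promoter: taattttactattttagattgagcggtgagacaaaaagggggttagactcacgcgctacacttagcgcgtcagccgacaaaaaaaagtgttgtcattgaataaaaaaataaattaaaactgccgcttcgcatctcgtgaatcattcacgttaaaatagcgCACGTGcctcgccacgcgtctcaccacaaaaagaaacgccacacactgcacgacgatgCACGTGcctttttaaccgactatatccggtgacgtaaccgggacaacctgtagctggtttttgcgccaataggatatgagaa
JAZ8 promoter: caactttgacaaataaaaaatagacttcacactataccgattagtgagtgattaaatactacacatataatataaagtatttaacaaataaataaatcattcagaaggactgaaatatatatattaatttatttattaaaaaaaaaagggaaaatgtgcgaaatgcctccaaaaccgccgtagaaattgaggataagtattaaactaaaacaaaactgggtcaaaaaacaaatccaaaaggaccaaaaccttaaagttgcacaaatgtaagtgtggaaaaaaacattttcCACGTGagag
JAZ13 promoter: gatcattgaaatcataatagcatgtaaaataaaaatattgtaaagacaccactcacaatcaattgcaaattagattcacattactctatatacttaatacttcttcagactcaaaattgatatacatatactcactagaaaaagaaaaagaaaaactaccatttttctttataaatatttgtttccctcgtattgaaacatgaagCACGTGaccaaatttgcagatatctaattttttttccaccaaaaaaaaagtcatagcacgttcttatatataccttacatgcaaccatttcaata
AOS promoter: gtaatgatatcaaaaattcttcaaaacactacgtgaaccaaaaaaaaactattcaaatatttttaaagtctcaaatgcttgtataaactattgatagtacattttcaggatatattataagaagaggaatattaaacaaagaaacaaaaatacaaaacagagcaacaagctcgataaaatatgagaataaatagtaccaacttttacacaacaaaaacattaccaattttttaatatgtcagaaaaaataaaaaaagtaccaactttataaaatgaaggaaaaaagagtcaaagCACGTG

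The hexamer starts 66 bases before the gene start in JAZ2, 10 bases before it in JAZ8 and 95 bases before it in JAZ13, while JAZ3 holds it 2 times, the nearer copy starting 82 bases before the gene. In AOS it takes up the last 6 bases before the gene start. Of the 13 JAZ genes 5 held it in this window, the fifth being JAZ7 (38.5%). In the other jasmonate lists it was in 2 of 18 windows of synthesis genes (11.1%), 2 of 13 of MYC targets (15.4%), 3 of 13 of the ERF branch (23.1%), 0 of 9 of breakdown genes and 0 of 12 of the receptor and factor list. Every tested gene of the MYC target and breakdown lists rose, and these lists are too small to set their shares against that of all genes. Over all protein-coding genes tested, 8.04% of such windows held CACGTG. The share was 13.7% of genes higher with MeJA, 16.2% of those higher by at least 1 on the log2 scale, 5.56% of genes lower with MeJA and 7.22% of genes that were not called. The GCC-box GCCGCC, searched on both strands, is known as a site for ERF factors and was in 2.39% of all windows, 2.99% of those of genes higher and 1.55% of those of genes lower. These shares describe letters in a fixed window and do not show binding.

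The libraries held 18.72 to 31.15 M counts assigned to genes, and 21211 of 32678 loci were tested. Reads that aligned to more than 1 place made up 12.8% in control replicate 1 and 6.13 to 6.81% in the other 5 libraries. MPK4 (AT4G01370), the mitogen-activated protein kinase that the line's name refers to, was at 1496, 1456 and 1536 CPM (normalised counts on the CPM scale, which sets each count against its library's total) in the controls and at 1513, 1503 and 1617 CPM with MeJA. WT controls had 61.4, 60.9 and 62.5 CPM, so every impk4 library stood far above every WT library. MPK4 did not pass the test for MeJA (log2 fold change 0.05 ± 0.06). Summed over 4 shoot markers, control libraries had 4790 to 5330 CPM and MeJA libraries 4180 to 4950 CPM. Summed over 5 root markers the ranges were 79.5 to 88.0 and 69.6 to 75.5 CPM, and over 6 markers of flowers and seeds 0.788 to 0.946 and 1.06 to 2.0 CPM. None of these markers was at 0 over a group. The shoot ranges overlapped and the root sums were lower with MeJA in every library. Over all genes tested 16.5% were higher with MeJA and 16.1% lower. Among single markers 2 of 4 of shoots fell. Of root markers 1 of 5 rose, near that background, and 2 fell, and 0 of the 4 tested of flowers and seeds were called. Their part in the results was not tested. In whole seedlings fewer cells of a type and less RNA per cell cannot be told apart.

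With MeJA, 6911 of the 21211 genes tested changed (32.6%) at an adjusted p under 0.05 in edgeR's quasi-likelihood test. Of them 3493 were higher (16.5%) and 3418 lower (16.1%). Counts of called members in every list below are to be read against these shares. Among large changes increases were more numerous, with 1304 genes higher by at least 1 on the log2 scale (6.15%) and 624 lower by as much (2.94%). When libraries were scaled by their totals alone, the median of all genes moved to -0.14 and the split became 2456 higher and 7033 lower. Small increases and small decreases therefore both depend on the scaling. The 3 MeJA libraries lay wholly above the 3 controls in 23.0% of genes and wholly below in 22.7%, together 45.7%. The 1304 genes with large increases took 2.84% ± 0.037 (SD, n = 3) of assigned counts in controls and 11.3% ± 0.2 with MeJA, as a description of genes chosen by this contrast. Values written a ± b below are log2 fold changes with standard errors, n = 3 libraries per group, and "rose", "fell" or "called" means an adjusted p under 0.05. Where control counts are few, these standard errors can be too small. Replicate noise sets a limit here, since the common biological coefficient of variation of the set was 0.078.

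**Figure D1:**
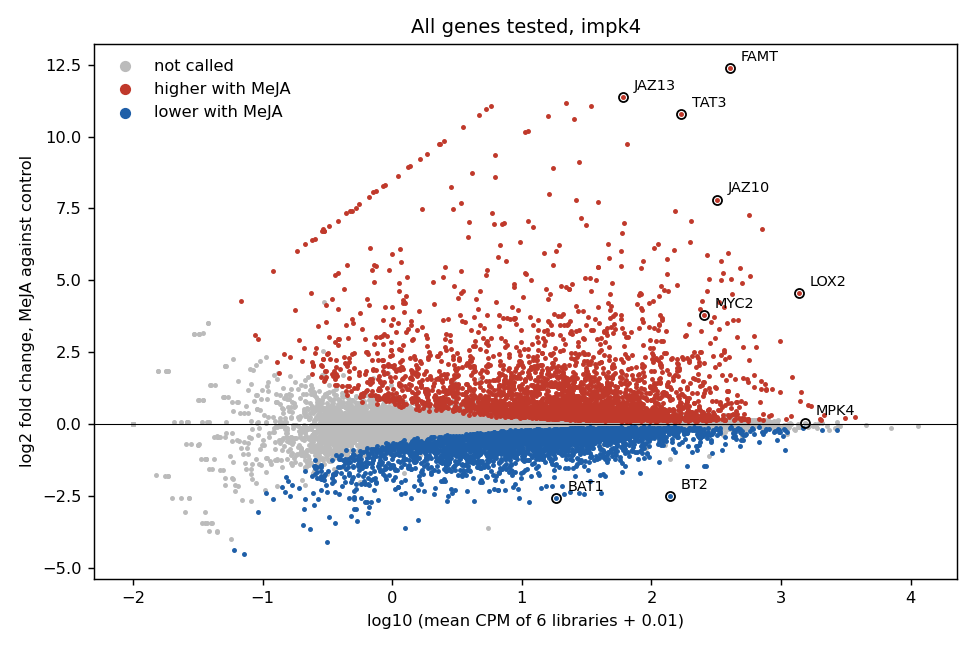
Log2 fold change with MeJA in impk4 (y axis) against log10 of the mean CPM of the 6 libraries plus 0.01 (x axis), each point being 1 of 21211 genes, red for the 3493 called higher, blue for the 3418 called lower and grey for the rest. Increases reach 12.37 and called decreases -4.54, and the straight upper line at low levels is made of genes with no or few control counts, whose fitted values depend on the fit's prior count.

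Among receptors and transcription factors of the pathway, 7 of 12 rose, 2 fell and 3 were not called, with a median of 0.52 against 0.00 over all genes tested. Of all genes 16.5% were higher and 16.1% lower, so the 2 of 12 that fell are near the background. MYC2 (AT1G32640, chromosome 1 at 11798119 to 11801407), the bHLH factor that leads the response, was at 33.5, 35.8 and 32.7 CPM in the controls and at 520.5, 512.1 and 383.6 CPM with MeJA. The groups lay far apart, and the rise was 13.9-fold (3.796 ± 0.14, adjusted p = 4.5e-20, edgeR). Its paralog MYC3 rose less, from 40.3, 43.3 and 40.9 CPM to 64.7, 71.1 and 65.2 CPM (0.69 ± 0.07). MYC4, the next relative, was at 20.8, 18.03 and 22.2 CPM in controls and at 18.6, 19.3 and 21.96 CPM with MeJA, so its groups overlapped (-0.03 ± 0.12, not called). JAM1 and JAM2, bHLH repressors that compete with MYC2, rose (3.38 ± 0.14 and 1.37 ± 0.08), and their relative JAM3 was not called (0.12 ± 0.07). The adaptor NINJA rose from 73.8 to 77.3 CPM across controls to 199.7 to 232.2 CPM with MeJA (1.52 ± 0.06), while the corepressor gene TPL fell (-0.30 ± 0.04). COI1, the receptor subunit, fell from 39.3, 35.8 and 41.5 CPM to 31.8, 29.8 and 33.0 CPM (-0.30 ± 0.08), without overlap between the groups. JAR1, which couples jasmonic acid to isoleucine to make the active hormone, rose (0.36 ± 0.07), as did JAV1, a repressor of jasmonate defence (1.94 ± 0.13). MED25, a Mediator subunit that works with MYC2, was not called (-0.07 ± 0.07).

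Of the 13 JAZ genes 12 rose and none fell, against 16.5% of all genes higher, and their median was 5.25. JAZ1 (AT1G19180), a repressor that COI1 degrades, was at 19.9, 17.2 and 17.6 CPM in controls and at 723.7, 730.4 and 630.8 CPM with MeJA, a rise of 38.1-fold (5.25 ± 0.15). JAZ10 (AT5G13220), whose splice forms are known to resist breakdown, went from 2.79, 2.50 and 3.06 CPM to 637.6, 660.6 and 600.1 CPM (7.81 ± 0.15). JAZ9 went from 7.48, 7.92 and 6.55 CPM to 1155, 1186 and 1060 CPM (7.29 ± 0.20). In these genes every MeJA library stood more than an order of magnitude above every control. JAZ8 and JAZ13, short members of the family that repress through motifs of their own, were almost silent in controls. JAZ8 (AT1G30135) had 1 count in the 3 controls together and 3052 with MeJA, a ratio of 3230 with a 95% counting interval of 579 to 128000. JAZ13 (AT3G22275) had 3 control counts and 8293 with MeJA, a ratio of 2920 (1000 to 14200). The other large increases were JAZ2 (4.61 ± 0.12), JAZ3 (4.02 ± 0.09), JAZ5 (7.01 ± 0.22), JAZ6 (5.04 ± 0.15) and JAZ7 (8.00 ± 0.33). JAZ12 rose less, from 35.5, 34.5 and 39.3 CPM to 103.0, 98.9 and 91.9 CPM (1.42 ± 0.07). JAZ4 was at 2.75, 3.78 and 5.27 CPM in controls and at 6.35, 6.23 and 7.60 CPM with MeJA (0.75 ± 0.24). Its call was lost without MeJA replicate 3, control replicate 1 or control replicate 2, with adjusted p = 0.08, 0.11 and 0.05 in edgeR. JAZ11 stood apart, at 10.7, 11.5 and 11.6 CPM in controls and 10.6, 11.9 and 11.2 CPM with MeJA (0.00 ± 0.11, not called).

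**Figure D2:**
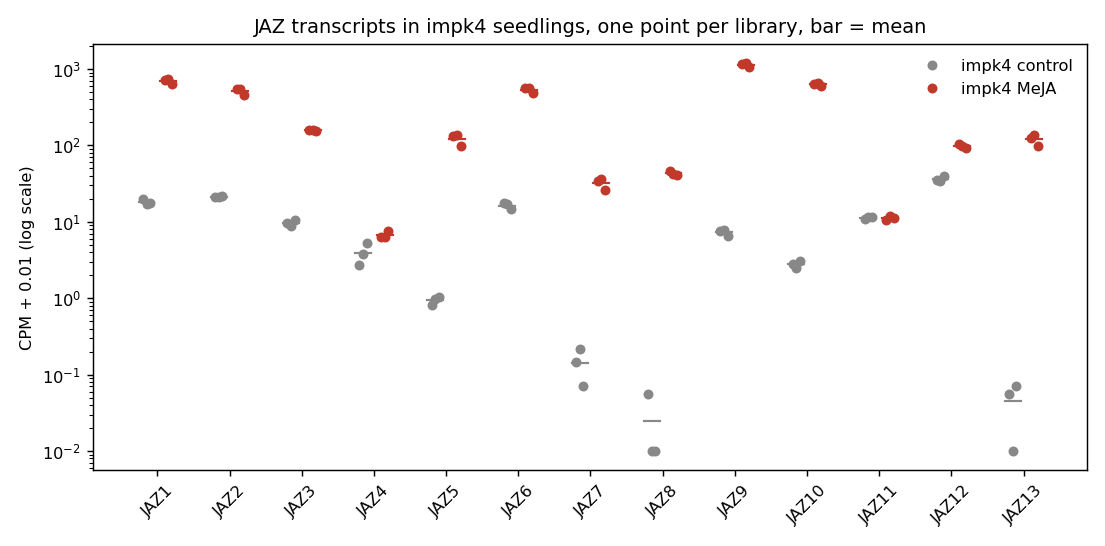
CPM plus 0.01 on a log axis (y axis) for the 13 JAZ genes (x axis) in the 3 control libraries (grey) and the 3 MeJA libraries (red) of impk4, with bars at the means. In 12 genes the red points lie above the grey ones, and in JAZ11 both sit between 10.6 and 11.9 CPM. CPM is not scaled to transcript length, so heights are comparable within a gene.

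Of 20 genes of jasmonate synthesis 18 were tested, of which 16 rose, 0 fell and 2 were not called, with a median of 3.302. LOX2 (AT3G45140), a plastid lipoxygenase that opens the pathway, was at 93.3, 109.2 and 131.2 CPM in controls and at 2591, 2852 and 2454 CPM with MeJA, a rise of 23.6-fold (4.56 ± 0.14). The other lipoxygenases rose as well, LOX4 by 6.26 ± 0.28, LOX3 by 4.202 ± 0.17 and LOX6 by 1.95 ± 0.07. AOS (AT5G42650), allene oxide synthase, went from 34.5, 31.9 and 27.8 CPM to 1118, 1235 and 993.7 CPM (5.15 ± 0.22). All 4 allene oxide cyclase genes rose, AOC1 by 5.89 ± 0.21, AOC2 by 3.63 ± 0.14, AOC3 by 2.97 ± 0.14 and AOC4 by 1.71 ± 0.07. AOC1, AOC2 and AOC3 lie side by side and are alike in sequence, so the split of reads among them is uncertain. OPR3, the peroxisomal reductase, rose from 23.7, 25.3 and 23.4 CPM to 838.4, 861.6 and 703.1 CPM (5.05 ± 0.13). The ligase OPCL1 rose by 5.01 ± 0.10, the oxidase ACX1 by 1.33 ± 0.06 and the importer CTS by 0.33 ± 0.06. KAT2, a thiolase of the last steps, was not called (-0.07 ± 0.05). Upstream, the plastid desaturases FAD8 and FAD7, which supply linolenic acid, rose little (0.58 ± 0.07 and 0.19 ± 0.06). The call of FAD7 was lost without control replicate 2 (adjusted p = 0.078, edgeR) and when scaled by library totals (adjusted p = 0.45, edgeR), and FAD3, the desaturase of the endoplasmic reticulum, was not called (-0.09 ± 0.06). JMT, which methylates jasmonic acid to MeJA, had 1 control count and 91 with MeJA, a ratio of 96.3 (16.8 to 3840). The lipases DAD1 and DGL did not pass the filter on low counts.

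All 9 tested genes of jasmonate breakdown rose (10 listed), with a median of 5.75. CYP94B1 (AT5G63450), an oxidase of jasmonoyl-isoleucine, was at 4.28, 4.34 and 4.61 CPM in controls and at 305.4, 308.5 and 266.3 CPM with MeJA (6.05 ± 0.17). CYP94B3 and CYP94C1, which act on the same hormone, rose by 3.71 ± 0.24 and 6.65 ± 0.26. The amidohydrolases IAR3 and ILL6, which split the conjugate, rose by 4.51 ± 0.07 and 5.75 ± 0.12. JRG21 (AT3G55970), an oxygenase of jasmonic acid, was at 0, 0.0511 and 0.121 CPM in controls and at 32.6, 37.7 and 33.6 CPM with MeJA (8.91 ± 0.31). It had 5 control counts in all, so that standard error can be too small. AT2G38240 and AT5G05600, annotated as oxygenases of the same superfamily, rose by 9.73 ± 0.27 and 5.66 ± 0.17. ST2A, a sulfotransferase of hydroxyjasmonate, rose by 3.16 ± 0.13. AT3G11180 of the same oxygenases did not pass the filter on low counts.

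All 13 tested target genes of the MYC branch rose (14 listed), with a median of 6.22. VSP2 (AT5G24770), a vegetative storage protein used as a marker of this branch, was at 1.44, 2.09 and 1.55 CPM in controls and at 107.4, 89.2 and 77.9 CPM with MeJA, a rise of 54.7-fold (5.77 ± 0.20). CLH1, a chlorophyllase, went from 14.1, 11.3 and 12.8 CPM to 1437, 1439 and 1344 CPM (6.78 ± 0.20). TAT3 (AT2G24850), a tyrosine aminotransferase, was at 0.0901, 0.255 and 0.212 CPM in controls and at 286.1, 356.4 and 372.7 CPM with MeJA (10.78 ± 0.37). Each of these genes was low in every control and high in every MeJA library. FAMT, a farnesoic acid methyltransferase, had the largest called increase of all genes (12.37 ± 0.54). Its control values were 0, 0 and 0.333 CPM, so that estimate rests on control replicate 3, and its MeJA values were 757.4, 841.5 and 818.6 CPM. TPS04, the synthase of a volatile terpene alcohol, had 1 control count and 2190 with MeJA, a ratio of 2320 (415 to 91500). NATA1, which acetylates ornithine, and ERF109, a redox-responsive ERF factor, also had 1 control count each, with ratios of 1590 (284 to 62700) and 1570 (282 to 62200). VSP1, the lectin JAL35, the lyase CORI3, the arginase ARGAH2 and the NAC factors NAC019 and NAC055 rose by between 3.04 and 6.22. BSMT1 did not pass the filter on low counts.

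In the branch that jasmonate shares with ethylene, 8 of 14 tested genes rose (15 listed), 1 fell and 5 were not called, with a median of 2.34. ORA59 (AT1G06160), the ERF factor that joins both hormones, was at 3.51, 3.37 and 2.58 CPM in controls and at 17.2, 15.0 and 16.4 CPM with MeJA (2.38 ± 0.20). ERF1, its relative, was at 0.180, 0.0511 and 0.0303 CPM in controls and at 1.58, 2.94 and 1.87 CPM with MeJA (4.62 ± 0.53), and ERF2 and ERF15 rose by 3.10 ± 0.21 and 1.62 ± 0.15. EIN3, the master factor of ethylene signalling, was not called (0.10 ± 0.05), and its paralog EIL1 fell (-0.31 ± 0.06). PDF1.2A (AT5G44420), a defensin and marker of the branch, was at 0.135, 0 and 0.364 CPM in controls and at 2.91, 2.28 and 3.93 CPM with MeJA (3.94 ± 0.58). Its levels with MeJA stayed low and in a range where few reads decide the fold. PDF1.2B (3 control counts, ratio 47.6, 15.9 to 234), PDF1.2C (3.31 ± 0.67) and PDF1.3 (2.30 ± 0.46) rose as well, and the near-identical PDF1.2 copies may share reads. The control counts of PDF1.2C were 0, 0 and 8, so its fold rests on control replicate 3. PDF1.3, at 0.255 to 3.27 CPM in impk4, was not called in WT (-0.19 ± 0.48) or impk36 (0.90 ± 0.47). Its difference between impk4 and WT was not called either (2.49 ± 0.67). The chitinase CHIB (-0.02 ± 0.16), the hevein-like PR4 (0.40 ± 0.22), PDF1.1 (-0.90 ± 0.77) and ERF14 were not called, the last with no control count. Of the 13 genes of this branch with a protein-coding window, 4 held GCCGCC.

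**Figure D3:**
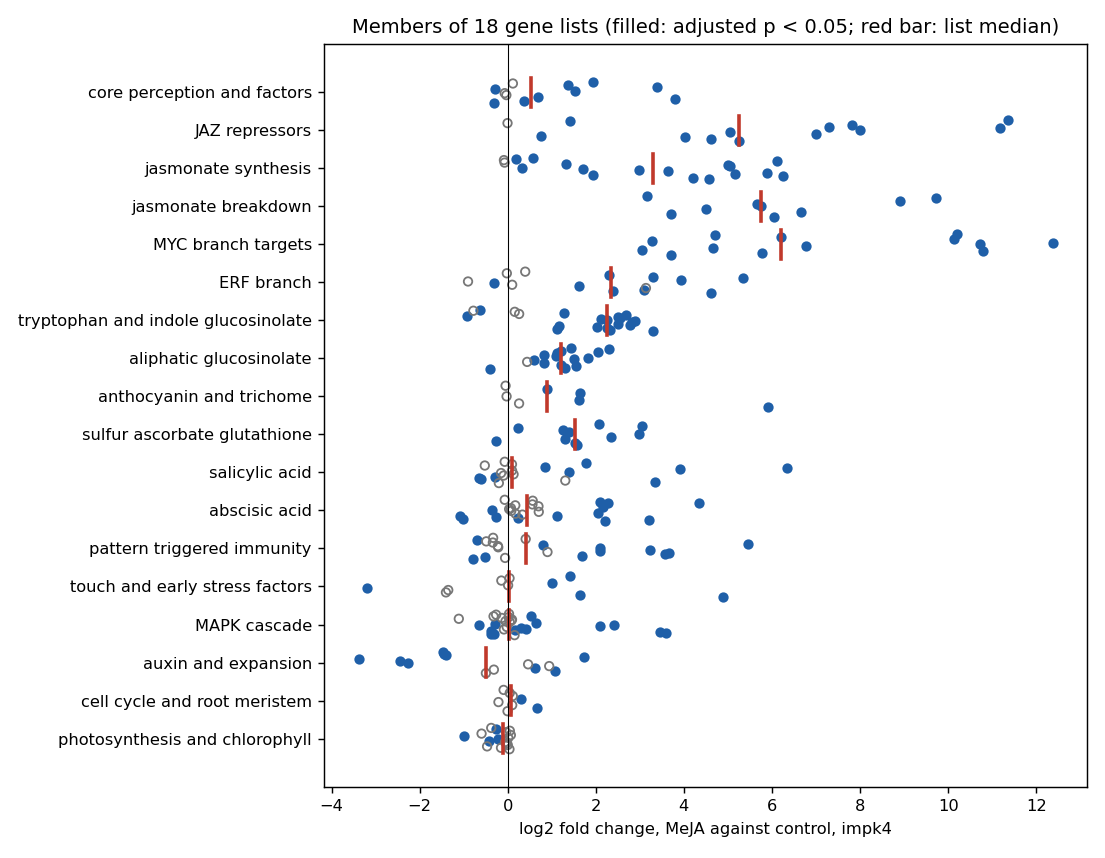
Log2 fold change with MeJA in impk4 (x axis) for the tested members of 18 gene lists (y axis), filled where the adjusted p was under 0.05, with the list median as a red bar. The medians of JAZ repressors, synthesis, breakdown and MYC targets lie between 3.302 and 6.22, and those of photosynthesis, MAPK cascade, touch, salicylic acid and cell cycle lists lie between -0.11 and 0.10.

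Of 21 genes of tryptophan and indole glucosinolate synthesis 16 rose, 2 fell and 3 were not called, with a median of 2.26. ASA1 (AT5G05730), the first enzyme of the tryptophan branch, was at 64.1, 64.8 and 56.0 CPM in controls and at 615.4, 618.6 and 574.3 CPM with MeJA (3.29 ± 0.09). CYP83B1, which commits the product to indole glucosinolates, went from 244.0, 248.6 and 207.9 CPM to 1661, 1801 and 1719 CPM (2.89 ± 0.16). TSB2, a tryptophan synthase subunit, rose by 2.78 ± 0.09, CYP79B3 and CYP79B2, which make indole acetaldoxime, by 2.82 ± 0.11 and 2.50 ± 0.09, and MYB34, their MYB activator, by 2.50 ± 0.15. The related activator MYB51 went the other way, from 10.7, 8.53 and 8.94 CPM to 4.68, 4.00 and 5.77 CPM (-0.93 ± 0.17). PEN2, a myrosinase that breaks indole glucosinolates down, fell from 175.1, 178.8 and 173.5 CPM to 111.0, 112.0 and 119.1 CPM (-0.62 ± 0.06). Of 16 tested genes of aliphatic glucosinolates (17 listed) 14 rose and 1 fell, with a median of 1.21. The oxygenase FMO_GS-OX1 rose by 2.29 ± 0.13, the sulfotransferase SOT17 by 2.04 ± 0.11 and the transporter BASS5 by 1.51 ± 0.09. MYB28, the chief activator of this branch, fell from 65.1, 63.9 and 64.9 CPM to 46.8, 49.5 and 50.0 CPM (-0.41 ± 0.07). MYB29 and MYB76, MYB factors of the same list, went the other way. MYB29 rose from 6.397, 5.619 and 6.697 CPM to 16.42, 16.46 and 13.77 CPM (1.304 ± 0.13). MYB76, low in both groups, rose from 0.3153, 0.3575 and 0.4545 CPM to 1.098, 1.266 and 1.067 CPM (1.552 ± 0.34).

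Sulfur assimilation, glutathione and ascorbate genes, which supply these products and buffer oxidants, had 10 of 11 members higher and 1 lower, with a median of 1.53. APK2 (AT4G39940), an APS kinase for sulfate donors, was at 71.4, 75.6 and 60.8 CPM in controls and at 550.9, 572.0 and 512.6 CPM with MeJA (2.98 ± 0.13). VTC5, of the ascorbate pathway, rose by 3.06 ± 0.10, DHAR1, which regenerates ascorbate, by 2.07 ± 0.08, and GSH1 and GSH2, the enzymes of glutathione synthesis, by 1.40 ± 0.04 and 1.26 ± 0.05. APR2, a reductase of sulfate assimilation, fell (-0.27 ± 0.08), whereas its relatives APR1 and APR3 rose (1.53 ± 0.10 and 1.31 ± 0.14). Of 7 tested anthocyanin and trichome genes (12 listed) 4 rose and 0 fell. PAP1, the MYB activator of anthocyanins, had 2 control counts and 137 with MeJA, a ratio of 72.5 (19.7 to 604). GL1 and GL3, partners in trichome formation, rose by 1.65 ± 0.22 and 1.63 ± 0.21, and CHS, the first enzyme of flavonoid synthesis, by 0.89 ± 0.15.

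In the lists that follow, counts are to be read against the 16.5% of all genes that were higher and the 16.1% that were lower. Of 18 tested salicylic acid genes (20 listed) 6 rose and 3 fell, with a median of 0.10, so the share that fell was near that of all genes. EDS5 (AT4G39030), the exporter of salicylic acid precursor from plastids, rose from 10.6, 10.5 and 10.7 CPM to 103.4, 113.1 and 104.1 CPM (3.33 ± 0.11). The glutaredoxin GRX480 rose by 6.34 ± 0.40, WRKY38 by 3.90 ± 0.38 and the receptor NPR3 by 1.39 ± 0.11. The immune regulators EDS1 (-0.61 ± 0.10) and PAD4 (-0.65 ± 0.16) fell, and ICS1, which makes the precursor, was not called (-0.20 ± 0.14). Of 24 abscisic acid genes 9 rose and 4 fell, with a median of 0.45. RD20, a lipid-associated stress protein, went from 0.405, 0.358 and 0.424 CPM to 8.59, 9.07 and 7.40 CPM (4.35 ± 0.20), and CYP707A1, which breaks the hormone down, rose by 3.21 ± 0.23. NCED3 (AT3G14440), the rate-limiting enzyme of abscisic acid synthesis, was at 2.79, 2.61 and 1.88 CPM in controls and at 16.2, 11.5 and 5.67 CPM with MeJA (2.201 ± 0.46). Its MeJA libraries differed widely while remaining above the controls. The receptor PYL6 fell (-1.09 ± 0.15), as did CYP707A3 (-1.01 ± 0.19).

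Of 19 tested genes of pattern-triggered immunity (20 listed) 8 rose and 3 fell, with a median of 0.41. RBOHD (AT5G47910), the oxidase behind the oxidative burst, rose from 48.7, 46.0 and 46.1 CPM to 408.5, 437.8 and 468.1 CPM (3.22 ± 0.11). PEPR2 and PEPR1, receptors of wound-released Pep peptides, rose by 3.58 ± 0.13 and 1.70 ± 0.08, and PROPEP1, a precursor of such a peptide, by 3.66 ± 0.15. WRKY40 and WRKY18, transcription factors that damp immune genes, rose by 5.46 ± 0.21 and 2.095 ± 0.14. FLS2, the flagellin receptor, fell from 38.3, 42.4 and 41.6 CPM to 25.1, 21.4 and 24.1 CPM (-0.79 ± 0.15), and the receptor-associated kinase BIK1 fell (-0.51 ± 0.07). FRK1, a widely used marker of pattern responses, was below 1 CPM in all 6 libraries and was not called (-0.49 ± 0.64). Of 10 touch and early stress genes 4 rose and 1 fell, against 16.5% of all genes higher and 16.1% lower. STZ, a zinc finger repressor, rose from 1.62, 1.94 and 1.36 CPM to 49.1, 47.6 and 45.4 CPM (4.88 ± 0.23), and CBF3, a cold response factor, fell (-3.18 ± 0.57).

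Of 27 genes of the MAPK cascade 9 rose, 5 fell and 13 were not called, with a median of 0.03, and the share that fell was near the 16.1% of all genes (16.5% of all genes were higher). MAPKKK17 and MAPKKK18, which are known to act in abscisic acid signalling, rose by 3.59 ± 0.28 and 3.46 ± 0.53. MAPKKK18 was at 0.901, 1.33 and 0.303 CPM in controls and at 12.9, 8.76 and 4.30 CPM with MeJA, so both groups were spread but did not overlap. MKK9 rose from 4.87, 5.98 and 5.15 CPM to 29.6, 28.6 and 26.1 CPM (2.40 ± 0.11), and MKK7 by 2.104 ± 0.53. MPK3 (AT3G45640), a kinase of immune signalling, was at 58.2, 59.1 and 55.9 CPM in controls and at 78.6, 91.2 and 98.5 CPM with MeJA (0.63 ± 0.10, adjusted p = 1.7e-06, edgeR). MPK6 was at 59.4, 57.7 and 60.2 CPM in controls and at 63.6, 60.9 and 63.4 CPM with MeJA, and was not called (0.08 ± 0.07). MEKK2 and MEKK3, relatives of MEKK1, fell (-0.31 ± 0.09 and -0.38 ± 0.08). MEKK1 itself, which lies upstream of MPK4, was not called (0.16 ± 0.06). MPK1 fell too (-0.64 ± 0.12).

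Among growth genes decreases were more numerous in the auxin list. Of 13 tested auxin and expansion genes (17 listed) 3 rose and 6 fell, with a median of -0.50. EXPA1 (AT1G69530), an expansin that loosens cell walls, fell from 385.7, 375.7 and 350.8 CPM to 144.1, 127.4 and 135.0 CPM (-1.45 ± 0.11). EXPA8 (-1.46 ± 0.29), the auxin repressor IAA29 (-2.27 ± 0.47) and the small auxin-induced genes SAUR20 (-2.44 ± 0.51) and SAUR21 (-3.37 ± 0.59) fell as well. SAUR20 and SAUR21 are close copies at under 1.5 CPM, and the split of reads between them is uncertain. GH3.5 fell (-1.41 ± 0.09) while GH3.3, also an enzyme that conjugates auxin, rose (1.74 ± 0.20). Of 16 photosynthesis and chlorophyll genes 0 rose and 4 fell, with a median of -0.11, against 16.5% of all genes higher and 16.1% lower, a background from which 4 of 16 is not far. GLK2, an activator of chloroplast genes, fell from 25.6, 25.3 and 26.5 CPM to 15.2, 12.3 and 11.9 CPM (-0.98 ± 0.13), whereas its partner GLK1 was not called (0.01 ± 0.15). With scaling by library totals 8 of the 16 were lower. Of 8 cell cycle and root meristem genes 2 rose, PLT2 (0.67 ± 0.26) and CDKB1;1 (0.31 ± 0.11), and 0 fell, a count near the 16.5% of all genes that were higher. PLT2 lost its call without any of 5 libraries, namely MeJA replicates 2 and 3 and the 3 controls, and CDKB1;1 without MeJA replicate 1 or 3 or control replicate 2.

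Outside the lists, the genes with the largest changes were ranked among those called, with a mean of at least 5 CPM, no overlap between groups and a symbol in the annotation. MYB24 (AT5G40350), a factor of stamen development that is known to bind JAZ proteins, had 0 counts in the controls and 794 with MeJA, at least 280-fold higher with 3 counts over the control group as the floor. Reductases of oxidised methionine take 3 of the 15 places, MSRB8 (9.11 ± 0.28), MSRB7 (7.06 ± 0.31) and MSRB6 (5.68 ± 0.19). MSRB8 had 7 control counts in all and AAE12, given below, had 8, so their standard errors can be too small. MSRB7 was at 2.21, 3.22 and 3.46 CPM in controls and at 333.3, 428.6 and 445.4 CPM with MeJA. MSRB7 and MSRB8 lie side by side and are alike, so reads may be split between them. HPL1 (AT4G15440), hydroperoxide lyase, which draws on the same fatty acid hydroperoxides as AOS, went from 0.360, 0.255 and 0.121 CPM to 55.0, 61.0 and 40.2 CPM (7.80 ± 0.28). NRT1.8, a nitrate transporter, went from 1.13, 1.38 and 2.55 CPM to 286.1, 267.7 and 357.2 CPM (7.40 ± 0.20). The kinase gene MAPKKK21 had 2 control counts and 855 with MeJA, a ratio of 452 (125 to 3740). The glucosidase BGLU24 (7.72 ± 0.30), the dirigent protein DIR5 (7.18 ± 0.66), MYB47 (7.05 ± 0.34), the acyl-activating enzyme AAE12 (6.95 ± 0.28), the amylase BAM5 (6.92 ± 0.39), PGL5 of the pentose phosphate pathway (6.24 ± 0.19), TBL26 (6.01 ± 0.19) and a monodehydroascorbate reductase, MDHAR (AT3G09940, 5.96 ± 0.21), complete the list.

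Decreases were smaller. BAT1 (AT4G31910), an acyltransferase that inactivates brassinosteroids, fell from 30.9, 31.0 and 33.3 CPM to 4.06, 4.71 and 6.90 CPM (-2.57 ± 0.13). BT2 (AT3G48360), a BTB protein tied to nitrate and sugar status, fell from 236.9, 237.0 and 237.8 CPM to 36.8, 30.5 and 56.3 CPM (-2.51 ± 0.21). HBI1, a bHLH factor that promotes growth, fell from 35.7, 38.3 and 43.1 CPM to 8.54, 7.90 and 6.50 CPM (-2.37 ± 0.17). In all these genes every MeJA library lay well below every control. Next came CYP71A27 (-2.28 ± 0.16), the thioredoxin ACHT5 (-2.25 ± 0.34), the clock-related RVE2 (-2.21 ± 0.16), MAKR6 (-2.17 ± 0.14), the bZIP factor BZO2H3 (-2.16 ± 0.29) and the ammonium transporter AMT1;3 (-2.09 ± 0.15). BBX27 and BBX17, zinc finger proteins of the B-box family, fell by 2.00 and 1.81 on the log2 scale, and DFL1, an auxin-conjugating enzyme, by 1.85. The remaining ranked genes, SIS, CRK2 and NCED4, fell by 1.96, 1.87 and 1.83 on the log2 scale.

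The response was set beside that of WT and impk36, whose libraries share none with impk4. WT had 6827 genes called (32.2%), 3405 higher and 3422 lower, and impk36 6672 (31.5%), 3395 higher and 3277 lower. By at least 1 on the log2 scale 5.85% of genes were higher and 3.7% lower in WT, and 5.94% and 2.94% in impk36. Of genes higher in impk4, 2767 were also higher in WT, 79.2% of the impk4 list and 81.3% of the WT list, and 2550 were lower in both, 74.6% and 74.5% of the lists. Across the 21211 genes, fold changes of impk4 and WT correlated with r = 0.918 (Spearman rho 0.777), as a description of points that share a fit and are not independent. The JAZ median was 5.25 in impk4, 5.22 in WT and 5.17 in impk36. Medians of the breakdown list were 5.75, 5.65 and 5.52, those of MYC targets 6.22, 6.03 and 5.28, and those of the ERF branch 2.34, 1.91 and 1.72 in the same order. Genes chosen on impk36 libraries alone as higher by at least 1 on the log2 scale numbered 1260, and their median was 1.89 in impk4 and 1.78 in WT. The 624 genes chosen as lower had medians of -1.21 in impk4 and -1.36 in WT.

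**Figure D4:**
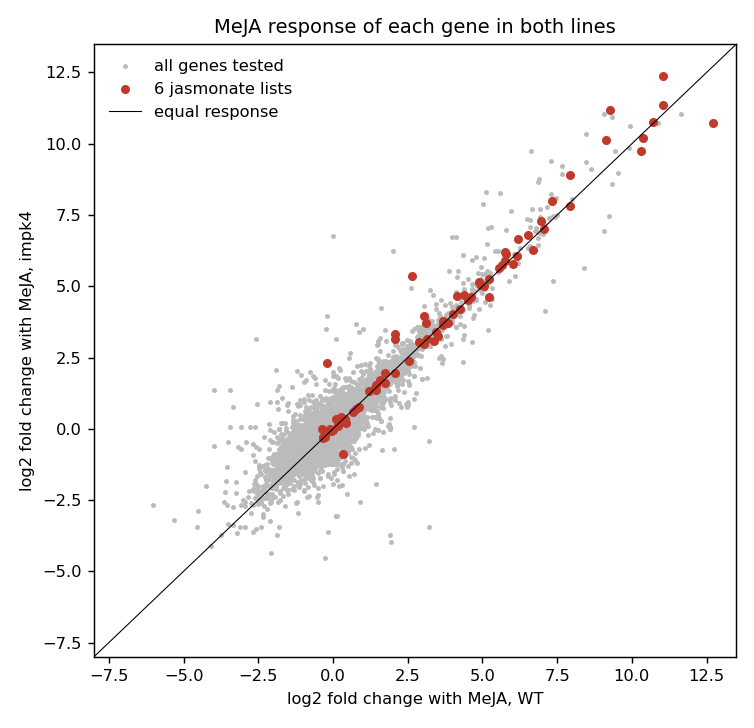
Log2 fold change with MeJA in impk4 (y axis) against that in WT (x axis) for 21211 genes (grey), with 79 tested members of the 6 jasmonate lists in red and the line of equal response. Red points run along the line, and TPS04, FAMT, PDF1.2B and PDF1.3, low in controls, are among those farthest from it.

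The difference between the lines was tested gene by gene, as the impk4 response minus the other. Against WT 1 of 21211 genes passed (0.00471%), against 984 at an unadjusted p under 0.05, and DESeq2 called 4. Against impk36 1 gene passed (0.00471%), against 661 unadjusted, and DESeq2 called 2. A missed threshold does not show equal responses, and the width of the intervals is only a rough guide to how much could be hidden. Standard errors were taken as the fold change over the square root of F, which is unstable for differences near 0. For MSRB8 the difference from impk36 was -0.006 ± 0.10, although the responses of impk4 and impk36 had standard errors of 0.28 and 0.31. The shares below partly reflect this formula. The 95% interval of the difference lay within 1 of 0 on the log2 scale for 83.2% of genes against WT and 84.1% against impk36, with a median half-width of 0.29. Among the 79 jasmonate list members this held for 55 against WT and 53 against impk36. For MYC2 the difference from WT was 0.12 with an interval of -0.25 to 0.50, for JAZ10 -0.13 (-0.58 to 0.33) and for LOX2 0.04 (-0.31 to 0.39). For genes near silence in controls the intervals were wide, as in TPS04 (-2.01, -7.40 to 3.39) and TAT3 (0.08, -2.82 to 2.98). The abscisic acid list had a median of 0.45 in impk4, 0.02 in WT and -0.03 in impk36, with 0 of 24 differences from WT called and 3 at an unadjusted p under 0.05.

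TCH3 (AT2G41100, chromosome 2 at 17137037 to 17139700), a calmodulin-like calcium-binding protein induced by touch, was the gene that differed from WT. In impk4 it was at 48.4, 54.1 and 41.8 CPM in controls and at 44.1, 47.1 and 56.6 CPM with MeJA, so the groups overlapped (0.04 ± 0.11, not called). In WT it was at 33.8, 37.6 and 41.6 CPM in controls and at 67.6, 84.3 and 64.6 CPM with MeJA, without overlap (0.93 in log2). In impk36 the values were 30.3, 27.1 and 25.1 CPM in controls and 36.9, 33.6 and 39.5 CPM with MeJA, a called rise (0.42 ± 0.11, adjusted p = 0.0028, edgeR), and the difference of impk4 from impk36 was not called (-0.38, -0.69 to -0.07, adjusted p = 1.0, edgeR). WT seedlings given DMSO in place of 3MBiP had 53.0, 64.0 and 57.4 CPM, above all 3 of the WT controls with 3MBiP that serve as the baseline. WT libraries given ABA, at 70.1, 67.5 and 60.7 CPM, were above those controls too, so higher values in WT were not seen with MeJA alone. The ABA libraries of impk4, at 53.7, 53.6 and 56.9 CPM, and of impk36, at 33.4, 26.0 and 28.8 CPM, overlapped their controls. With PEP3 TCH3 was far higher, at 2020, 2040 and 2010 CPM in WT, 1540, 1640 and 1740 CPM in impk4 and 1190, 1260 and 1300 CPM in impk36. The difference of the response, impk4 minus WT, was -0.89 ± 0.15 (interval -1.19 to -0.59, adjusted p = 0.025, edgeR). The call was lost with the replicate block (adjusted p = 0.085, edgeR), in a fit of the 4 groups alone (adjusted p = 0.6, edgeR) and without any of 7 libraries, namely MeJA replicates 1 and 2 and control replicates 1 and 2 of impk4, and MeJA replicate 2 and control replicates 1 and 2 of WT. Over 18 alternatives the difference ranged from -1.01 to -0.77, and 9 of them called it. MBP2 and MBP1, myrosinase-binding proteins encoded side by side, ranked next with larger rises in impk4 (differences 1.63 ± 0.33 and 1.16 ± 0.24), and did not pass (adjusted p = 0.1 each, edgeR).

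ADS1 (AT4G29140, chromosome 4 at 14368877 to 14371195), annotated as a MATE efflux protein, was the gene that differed from impk36. In impk4 it was at 25.9, 22.2 and 26.5 CPM in controls and at 24.4, 22.8 and 23.6 CPM with MeJA, so the groups overlapped. In impk36 it was at 11.5, 12.8 and 12.5 CPM in controls and at 6.03, 5.84 and 5.54 CPM with MeJA, lower without overlap. The impk36 libraries given ABA (abscisic acid), at 7.03, 7.38 and 8.0 CPM, or PEP3, at 9.35, 8.1 and 7.81 CPM, were also below all 3 controls, so lower values in that line were not seen with MeJA alone. In impk4 the libraries given ABA, at 16.1, 18.5 and 15.2 CPM, were below its controls too, and those given PEP3, at 24.4, 26.1 and 26.5 CPM, overlapped them. WT had 19.6, 20.8 and 18.5 CPM in controls and 21.4, 20.8 and 18.9 CPM with MeJA, and the difference between impk4 and WT was not called (-0.13, -0.36 to 0.10). The difference of the response, impk4 minus impk36, was 1.00 ± 0.12 (adjusted p = 4.5e-05, edgeR), and all 18 alternatives called it, with values of 0.93 to 1.06.

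**Figure D5:**
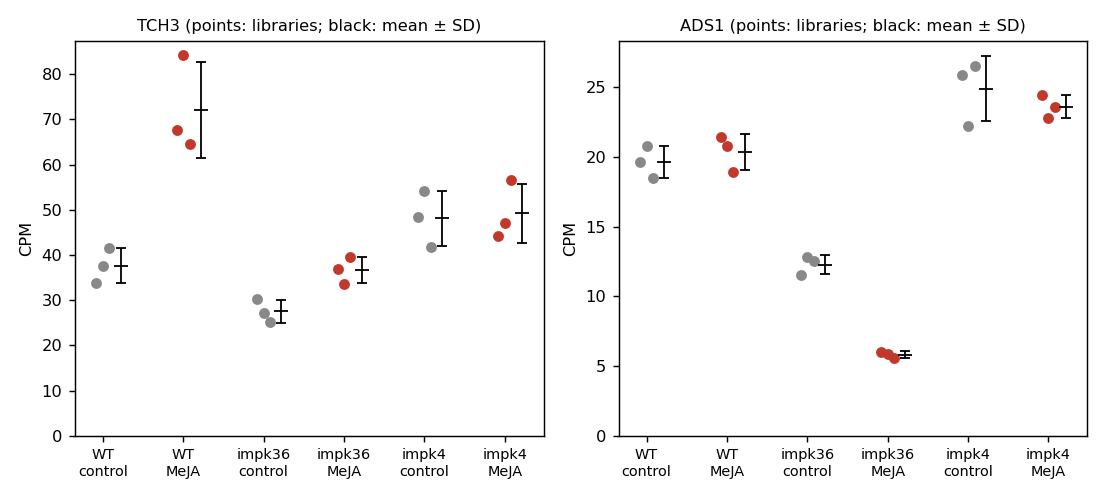
CPM (y axis) of TCH3 (left) and ADS1 (right) in each library of 6 groups (x axis), grey for controls and red for MeJA, with mean ± SD in black (n = 3). TCH3 reaches 64.6 to 84.3 CPM in WT with MeJA and 44.1 to 56.6 CPM in impk4 with MeJA, and ADS1 falls to 5.54 to 6.03 CPM in impk36 with MeJA.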

How the data were processed

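Total RNA of pooled seedlings was sequenced with the TruSeq RNA v2 kit, per the labels' protocols. The authors deposited files of raw counts, 1 for each library, made with TopHat and HTSeq on TAIR10, per the submitters' processing notes. Versions, settings and the use of strand in counting are not given in the sources used here, so overlapping and antisense genes may share reads. Lines of the files that name no gene (not unique 6.13 to 12.8%, no feature 0.905 to 1.18%, ambiguous 1.54 to 1.67% of reads in the 6 impk4 libraries) were left out. Assigned counts were 18.72 to 31.15 M per library. Reads carry no molecular identifiers, so intervals and floors cover counting error only.

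All 39 libraries of set B1 (13 groups) were fitted in edgeR 4.0.16 (R 4.3.3) with 1 mean per group, TMM scaling, filterByExpr by group and robust two-sided quasi-likelihood F tests. P-values were adjusted by Benjamini-Hochberg over 21211 genes in each of 5 contrasts. Standard errors are the fold change over the square root of F. For genes with few control counts they can be too small. In JAZ8, with 1 control count, the fit gave 11.17 ± 0.33, while the counting interval of its ratio was 579 to 128000. CPM used TMM-scaled library sizes. The smallest p that exact permutation of 3 against 3 libraries allows is 0.1, and calls rest on the pooled spread. The method was tested on simulated data. Alternatives used DESeq2 1.42.0, its size factors, no filter, fewer groups, a replicate block, left-out libraries and, added after seeing the data, scaling by library totals.

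Replicate numbers are given in the labels without a shared origin. Deviations from group means of same-numbered impk4 control and MeJA libraries correlated with r = 0.23, 0.13 and 0.40, all above 0.1, so the numbers were taken to pair them. In impk36 they were 0.14, 0.10 and 0.42, the second just above 0.1, and in WT 0.11, -0.33 and 0.34, not all above it. The reported fit held no term for the replicate number, so its standard errors and p-values do not use the pairing within impk4. With the replicate block as an alternative, 7471 genes were called in impk4 and 0 for the difference from WT.

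The 21 lists (302 members, all loci found in TAIR10.1) and the members were chosen with earlier results of these data known. Named were members of the jasmonate lists, up to 6 per direction of other lists by adjusted p, the 3 kinases MPK3, MPK4 and MPK6, and 15 genes per direction ranked by fold change as described above. Outside that rule CYP83B1, CYP79B3, MYB34, MYB29, MYB76, APR1, APR3, NCED3, ICS1, FRK1, MEKK1, GLK1, MBP1 and MBP2 were named after their values were seen. Symbols, coordinates and promoters come from RefSeq's TAIR10.1. Promoter windows were searched for CACGTG and GCCGCC.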

Additional observations from a re-analysis of the deposited data

Results flagged for a closer look

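TCH3 was singled out because the test of the difference itself passed, with an MeJA response lower in impk4 than in WT by -0.89 on the log2 scale (adjusted p = 0.025, edgeR). Of 18 alternatives 9 kept the call, and it was lost with the replicate block (adjusted p = 0.085, edgeR), with the 4 groups alone (adjusted p = 0.6, edgeR) and without any of 7 libraries. All 3 WT libraries with MeJA, at 64.6 to 84.3 CPM, lay above the 3 of impk4, at 44.1 to 56.6 CPM. The impk4 controls, at 41.8 to 54.1 CPM, also lay above those of WT, at 33.8 to 41.6 CPM, so both ends of the contrast differ between the lines.

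ADS1 was singled out for the same reason in the comparison with impk36, with a difference of 1.00 on the log2 scale (adjusted p = 4.5e-05, edgeR). The 3 impk36 controls, at 11.5 to 12.8 CPM, were also below the 3 impk4 controls, at 22.2 to 26.5 CPM.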

How the results depend on the processing

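Of 312 list members and ranked genes, 218 were called in impk4. Under the 12 alternatives run on single genes 197 of them stayed called in the same direction, 21 lost the call under at least 1 and 0 reversed, while 29 of the 94 uncalled genes were called under at least 1. The count in impk4 was 6907 with DESeq2 size factors, 6646 without a filter, 6874 with the 2 groups alone, 6697 with the DESeq2 Wald test and 9489 with scaling by library totals. Leaving out 1 library gave 6063 to 6217 in impk4, 5988 to 6264 in WT and 5824 to 6019 in impk36, where fewer libraries enter the fit. With a log2 change of at least 1 as a further condition the counts were 1928 in impk4, 2026 in WT and 1884 in impk36, and 0 for the difference from WT, since fewer genes meet both conditions. With the replicate block impk4 had 7471 genes (3802 higher and 3669 lower), WT 7389, impk36 7207, the difference from WT 0 and that from impk36 1. Across lines the numbers were not taken to pair libraries, as the lowest r of each such comparison fell below 0.1. Other values of r between lines reached 0.36, and for number 3 they were 0.13 to 0.36, above 0.1 in every such comparison. The rule therefore does not show that the libraries are unrelated. Apart from the difference from WT, the block changed none of the 5 counts by over 1.5 times. The difference from WT numbered 0 with the 4 groups alone, 4 with DESeq2 and 0 to 4 without 1 library. That from impk36 numbered 2 with the 4 groups alone, 2 with DESeq2 and 1 to 2 without 1 library. The cause was not tested. Depth limits genes near silence in controls, where single reads set the fold.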

Other observations

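Among genes called higher in impk4, the MeJA library of replicate 3 was often the lowest of its group. This held for 1535 of 3493 genes (43.9%), for 11 of 12 JAZ genes that rose and for all 9 abscisic acid genes that rose, with NCED3 at 5.67 CPM there against 16.2 and 11.5 CPM as an example. In WT replicate 3 was lowest for 1917 of the same 3493 genes (54.9%) and in impk36 for 1214 (34.8%), where replicate 2 was lowest for 1545. Replicate 3 was also the most deeply sequenced impk4 MeJA library, at 30.87 M assigned counts against 20.8 and 22.07 M. The same held in the control and MeJA groups of every line. Replicate 3 had 29.29 to 31.15 M there and the other libraries 18.09 to 22.07 M.

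Genes with large increases often sat next to each other. Of 1303 nuclear genes higher by at least 1 on the log2 scale, 457 (35.1%) had a next tested neighbour that was also higher by as much, in 258 pairs. Among the other genes 10.2% had such a neighbour. Tandem copies such as AOC1 to AOC3 are among these pairs, and their part in the share was not tested.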
